A study of Mus musculus with 6 samples.

Results

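The aminoacyl-tRNA synthetases are the enzymes that join each amino acid to its transfer RNA, the step that makes amino acids usable by the ribosome. In mice, most amino acids have a cytosolic enzyme, which serves the ribosomes of the cytosol, and a separate enzyme encoded in the nucleus and imported into mitochondria, which serves the translation of the few proteins encoded by mitochondrial DNA. Several cytosolic enzymes are held together with scaffold proteins in the multi-tRNA synthetase complex. When an amino acid is scarce, uncharged transfer RNA activates the kinase GCN2, and the transcription factor ATF4 then raises genes of amino acid supply, many cytosolic synthetases among them.

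The genes were chosen by name, as the protein-coding genes whose symbol is a letter followed by ars, with or without a 1 or 2 at the end, together with Eprs, Farsa, Farsb and Tarsl2. This gave 38 of the 49315 genes in the files, 21 cytosolic and 17 mitochondrial, the latter being those whose symbol ends in 2. Gars and Kars encode both forms from 1 gene and were counted as cytosolic, and Tarsl2 is a second threonyl enzyme of the cytosol. By catalytic fold, 18 belong to class I and 19 to class II, and Eprs carries 1 enzyme of each class. All 38 had enough counts to be tested, with between 81 counts (Aars2 in WT LT-HSCs) and 142714 counts (Lars2 in ING4-/- MPPs), so no member was lost to a filter on low values.

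The data are bulk RNA-seq of hematopoietic stem and progenitor cells (HSPCs) from lineage-depleted bone marrow of untreated mice, all sorted as Lin- Sca1+ cKit+ cells without CD48. Of these, LT-HSCs had CD150 but no CD34, ST-HSCs had both, and MPPs had CD34 but no CD150. The groups are WT, from young adult C57BL/6 mice, and ING4-/-, from mice with both copies of Ing4 disrupted. Marrow of several mice was pooled, and each genotype gave 1 library per population, 6 libraries in all. The comparison set the 3 libraries of ING4-/- against the 3 of WT, so the populations stood in for replicates and p-values measure the spread between these libraries only.

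Total counts were 7839326 to 9363442 in WT and 35596876 to 39192588 in ING4-/-. For Ing4 itself, the counts were 247, 162 and 247 in the WT LT-HSC, ST-HSC and MPP libraries and 0, 24 and 76 in those of ING4-/-, where the background alone corresponds to 97.2 to 122 counts in WT. The WT libraries held counts on genes that blood cells do not use. Olfactory and vomeronasal receptor genes had 18.3 to 22.9 counts per kb of exon in WT and at most 0.080 in ING4-/-. Spread over all exons, this background made up 22.8% to 33.7% of the counts in WT and no more than 0.0263% in ING4-/-. Genotype and background cannot be told apart in this design, so log2 fold changes between the genotypes are given from the counts as deposited and after subtraction of the background density times the exonic length. Among sorting markers, Cd34 was lowest in LT-HSCs and highest in MPPs of both genotypes, with a CPM (TMM-normalized counts scaled to library size) in LT-HSCs, then ST-HSCs, then MPPs of 109, 237 and 714 in WT and of 304, 715 and 1559 in ING4-/-, and Slamf1, which encodes CD150, was lowest in MPPs of both. Cd48, the marker the sort left out, had 5.27, 16.6 and 36.9 in WT and 0, 34.1 and 127 in ING4-/-. The summed CPM of 10 stem and progenitor markers was 1313 to 2366 in WT and 2144 to 4114 in ING4-/-. Over 6 markers of T and NK cells it was 41.7 to 48.0 in WT and 0 to 2.21 in ING4-/-, where 4 of the 6, and 4 of 6 B cell markers, were at 0 in every library. The sums were 32.6 to 163 and 87.6 to 191 for 8 erythroid markers, 34.1 to 188 and 73.7 to 318 for 8 granulocyte markers, and 68.2 to 70.5 and 66.6 to 125 for 6 B cell markers, WT first. In the WT LT-HSC library Car1 held 144 of the erythroid sum. Of the 8 erythroid genes 4, all globins, were called higher in ING4-/- with and without subtraction, next to 5.64% and 7.98% of all genes tested. Hba-a1, for example, was at 1.16, 1.18 and 2.06 in WT and 26.9, 57.3 and 15.7 in ING4-/-. The part of such cells in the results was not tested. In bulk samples, fewer cells of a type and less RNA per cell cannot be told apart.

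Promoter sequences are shown for the cytosolic members that carry the letters of the ATF4 response element. That of Lars2, the member with the highest fold change from the deposited counts, is shown next to them. RefSeq promoter windows of GRCm38.p6, reaching from 250 bases before the annotated start to 50 after it, were matched for 28 of the 38 members. TGATGNAA, the core of the element bound by C/EBP and ATF proteins, was searched on both strands, and so was CACGTG, the E-box read by Myc and its relatives. The motifs did not overlap each other in the members shown. TGATGNAA was found in 5 of 14 cytosolic windows (Aars, which holds it at 2 places, Gars, Iars, Tars and Yars) and in 0 of 14 mitochondrial windows, against 3.97% of the 32851 windows of all genes. CACGTG was found in 4 cytosolic windows (Aars, Farsb, Iars and Tars) and 1 mitochondrial window (Ears2), against 7.15% of all windows. A match describes the letters only. Below, 150 bases before and 25 from the RefSeq start are printed 5′ to 3′ on the strand of the gene, with both motifs, in either orientation, in capitals.
Aars, chr8:111033692-111033866, plus strand: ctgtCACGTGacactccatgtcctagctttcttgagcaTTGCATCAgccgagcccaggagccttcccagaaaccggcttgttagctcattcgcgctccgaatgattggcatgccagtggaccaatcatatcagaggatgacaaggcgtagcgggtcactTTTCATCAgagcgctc
Gars, chr6:55037851-55038025, plus strand: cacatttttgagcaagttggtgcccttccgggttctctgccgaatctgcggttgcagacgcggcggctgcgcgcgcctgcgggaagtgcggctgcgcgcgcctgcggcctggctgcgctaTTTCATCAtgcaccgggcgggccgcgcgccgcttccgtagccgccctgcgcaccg
Iars, chr13:49681980-49682154, plus strand: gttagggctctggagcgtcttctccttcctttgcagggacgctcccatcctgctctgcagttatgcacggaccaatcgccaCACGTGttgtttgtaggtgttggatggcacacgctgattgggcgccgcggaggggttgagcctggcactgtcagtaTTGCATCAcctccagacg
Tars, chr15:11399634-11399808, minus strand: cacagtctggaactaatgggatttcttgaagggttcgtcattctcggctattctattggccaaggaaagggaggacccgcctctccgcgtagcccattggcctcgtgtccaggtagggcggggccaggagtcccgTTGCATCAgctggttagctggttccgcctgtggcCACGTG
Yars, chr4:129189753-129189927, plus strand: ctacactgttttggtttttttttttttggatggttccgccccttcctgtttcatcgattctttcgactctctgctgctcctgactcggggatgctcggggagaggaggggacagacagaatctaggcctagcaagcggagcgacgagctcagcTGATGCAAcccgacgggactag
Lars2, chr9:123366777-123366951, plus strand: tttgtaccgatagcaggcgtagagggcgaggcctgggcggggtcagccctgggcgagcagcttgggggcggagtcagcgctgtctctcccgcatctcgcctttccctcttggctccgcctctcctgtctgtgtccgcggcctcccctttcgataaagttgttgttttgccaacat

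Cytosolic synthetase genes were expressed at higher levels than mitochondrial ones in every library. Values per population are given here in the order LT-HSC, ST-HSC and MPP. The median CPM per kb of exon over the 21 cytosolic genes was 17.2, 24.5 and 33.2 in WT and 36.7, 47.2 and 37.5 in ING4-/-. The median over the 17 mitochondrial genes was 5.97, 6.41 and 8.51 in WT and 6.87, 11.2 and 8.49 in ING4-/-. After background subtraction the cytosolic medians were 22.8, 35.9 and 44.6 in WT and 32.8, 39.6 and 32.2 in ING4-/-. The mitochondrial medians were then 5.51, 6.43 and 9.53 in WT and 6.14, 9.38 and 7.29 in ING4-/-. For both kinds WT then lay above ING4-/- in MPPs. Per kb, the highest in WT was Vars, the valyl enzyme of the cytosol, at 52.0 to 90.0, followed by Nars, the asparaginyl enzyme, at 54.1 to 60.0, and the ranges of these neighbours overlapped. Next by the WT median came a mitochondrial gene, Lars2, at 20.4 to 43.9. Its range overlapped those of several cytosolic genes, such as Kars at 34.1 to 42.6. In ING4-/- Lars2 was the highest of all 38. The lowest was Mars2, the mitochondrial methionyl enzyme, at 1.76 to 2.87 in WT. These levels use all annotated exonic bases of a gene, which understates genes with many non-coding transcript models such as Eprs, with 18102 exonic bases. Of 13 amino acids with exactly 1 gene of each kind, the cytosolic gene lay above the mitochondrial one per kb in all 6 libraries for 10, with and without background subtraction.

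**Figure D1:**
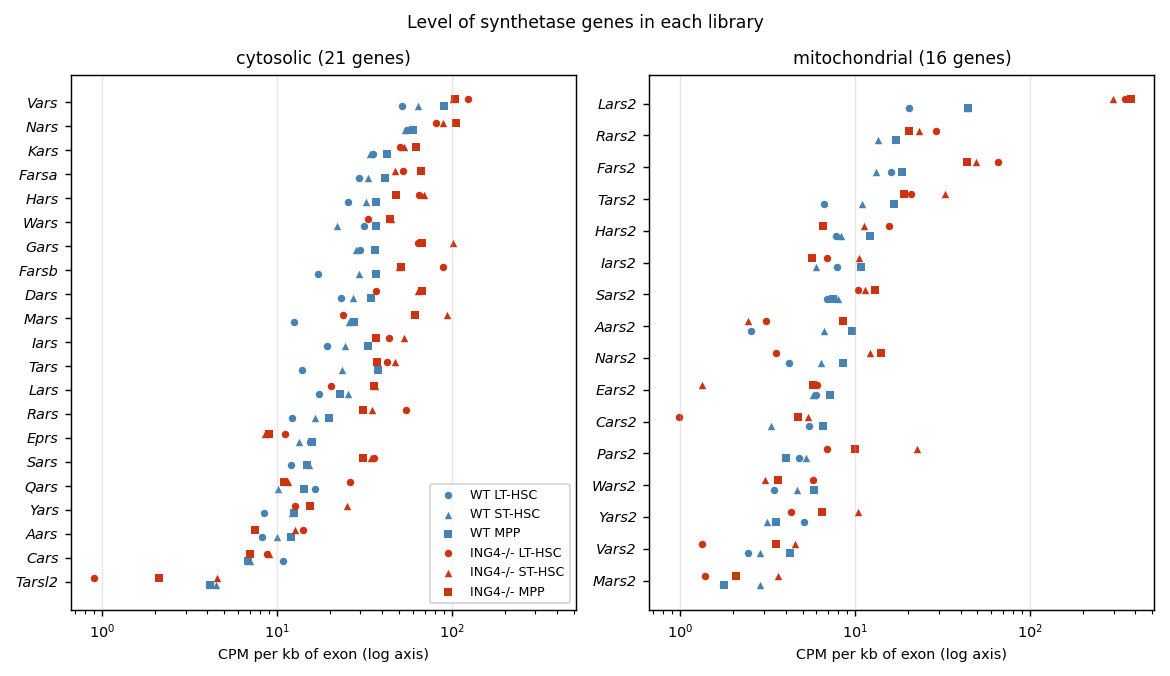
Level of 21 cytosolic and 16 mitochondrial synthetase genes in CPM per kb of exon (log axis), 1 point per library, WT in blue and ING4-/- in red, with circles for LT-HSCs, triangles for ST-HSCs and squares for MPPs, and genes ordered by their WT median. Lars2 in ING4-/- lies far to the right of every other gene, and the other mitochondrial genes lie mostly to the left of the cytosolic ones.

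The lower the level of a gene, the larger the part of its WT counts that the background makes up. Background corresponded to 6.92% to 12.5% of the WT counts on cytosolic members and to 14.4% to 31.6% of those on mitochondrial members. For 7 mitochondrial members it exceeded 50% in at least 1 WT library, and for 1 cytosolic member, Tarsl2. For Mars2 it reached 135% in WT LT-HSCs, so WT expression of this gene could not be told from background there.

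**Figure D2:**
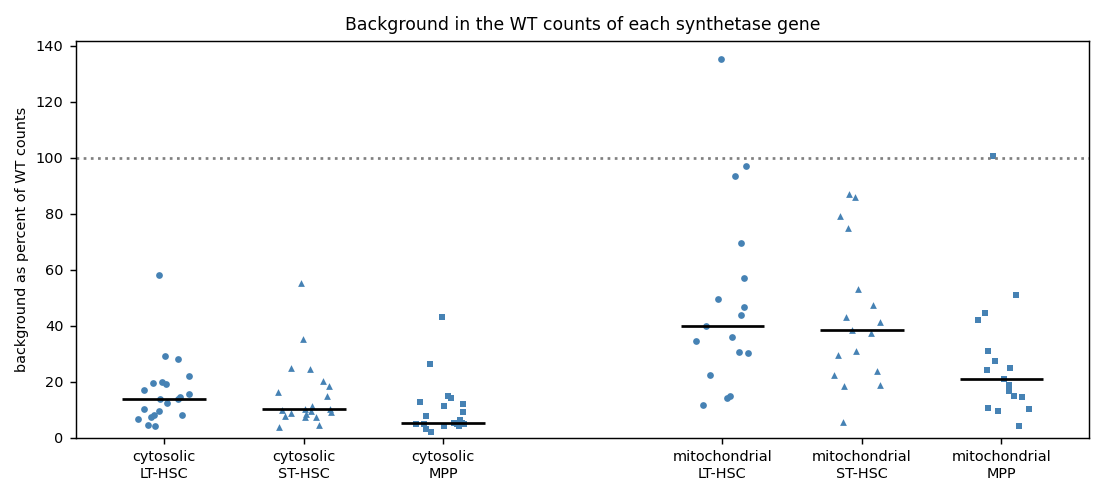
Background as a percent of the WT counts of each synthetase gene, by kind and population, with 1 point per gene and the median as a bar. The dotted line marks 100%, where all counts equal the background, and Mars2 lies above it at 135% in LT-HSCs and 101% in MPPs.

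In the comparison of ING4-/- with WT HSPCs, 9 synthetase genes were called higher and 0 lower, where a call needs an adjusted p under 0.05 in edgeR's quasi-likelihood test over all genes and an absolute log2 fold change over 1. They were 5 cytosolic genes (Mars, Rars, Gars, Sars and Farsb) and 4 mitochondrial genes (Lars2, Fars2, Pars2 and Tars2). Over all 31001 genes tested, the shares called were 7.98% (higher) and 56.7% (lower), with a median log2 fold change of -6.85. Among the 9673 genes that reached 10 counts in each library, as every member did, 24.3% were called higher and 6.53% lower in the same fit, with a median log2 fold change of 0.52, although this minimum leaves out genes that fell to near 0. The 9 of 38 synthetase genes are 23.7%, and their median was 0.64, with 30 genes above 0 (25.5% of all genes tested) and 8 below. The share of members called higher is thus near that of the 9673 genes and is no result about the synthetases as a list. The share above 0 among the 9673 genes was not taken in this fit, but their median was above 0 as well. Without a minimum fold, 16 members had an adjusted p under 0.05 and were higher (9.60% of all genes), and 1, Eprs, was lower (56.8%). By DESeq2's test 2 members were called higher (3.47% of 44670 genes) and 0 lower.

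After background subtraction 2 members were called higher, Lars2 and Fars2, and 1 lower, Eprs. Of 19672 genes tested there, 5.64% were called higher and 38.6% lower. Among the 9639 of them that reached 10 deposited counts in each library, 9.09% were called higher and 5.66% lower, where the shares of the members were 5.26% and 2.63%. The median log2 fold change of the members was 0.10, next to 0.25 for those 9639 genes. Lars2 was called higher in all 19 refits that changed the normalization, the filter, the test, the depth, the background, the block or the libraries, and Fars2 in 18 of them. The other 7 genes called from the deposited counts were each called in 5 to 13 of the 19.

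**Figure D3:**
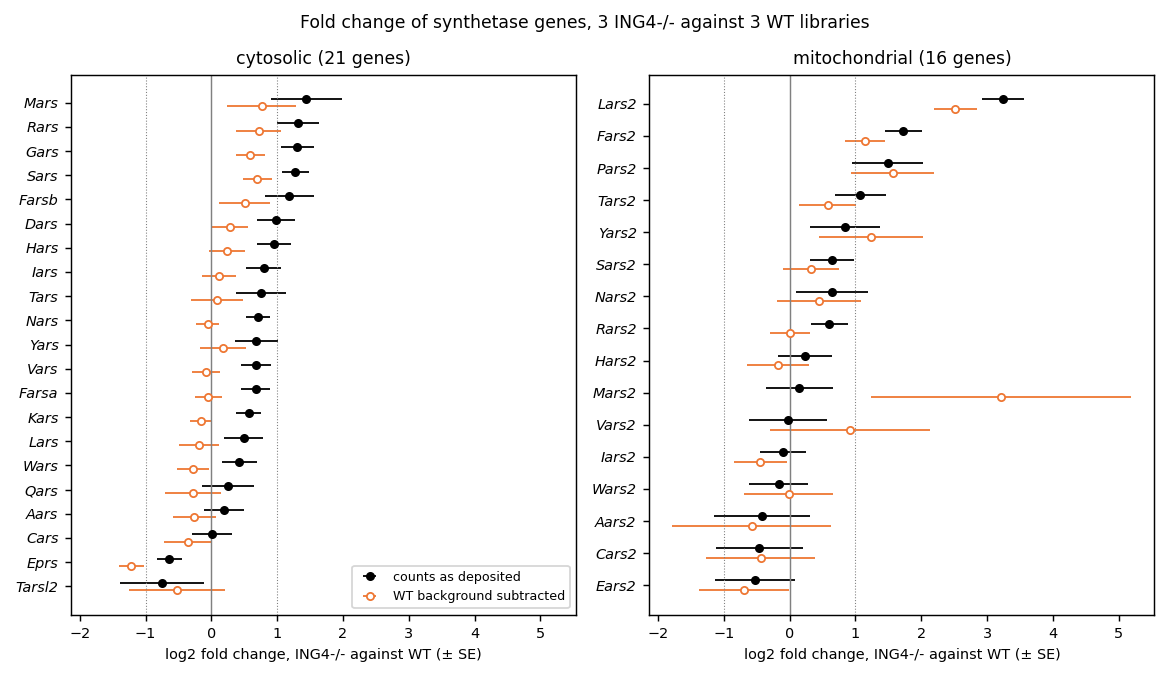
Log2 fold change of 21 cytosolic and 16 mitochondrial synthetase genes in ING4-/- against WT with its standard error, from the counts as deposited (black) and after background subtraction (orange), 3 libraries per genotype. Dotted lines mark a log2 fold change of 1 in either direction, and most cytosolic genes move from above 0 to near 0 with the subtraction while Lars2 stays at 2.52.

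Among the cytosolic enzymes, Gars, which makes glycyl-tRNA for both compartments, had a CPM of 93.0, 88.4 and 112.7 in the WT populations and of 198, 319 and 211 in the ING4-/- ones. Every ING4-/- library lay above every WT library. The log2 fold change was 1.31 (SE 0.249, adjusted p = 0.00235, edgeR) and fell to 0.59 (SE 0.227, adjusted p = 0.0709) after subtraction. Sars, the seryl enzyme, was the most even of the called cytosolic genes, with 62.0, 78.1 and 76.1 in WT and 185, 178 and 159 in ING4-/-. Its means were 72.1 ± 8.75 and 174 ± 13.6 (SD, n = 3 populations each), and the log2 fold change of 1.27 (SE 0.203, adjusted p = 0.00107, edgeR) became 0.70 (SE 0.217) with an adjusted p of 0.0324, under the fold needed for a call.

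Rars, the arginyl enzyme of the synthetase complex, had 39.5, 53.2 and 63.97 CPM in WT and 176, 113 and 99.9 in ING4-/-. The groups did not overlap, and the gap narrowed from LT-HSCs to MPPs, with log2 ratios of 2.15, 1.09 and 0.64 from 1 library of each genotype. The log2 fold change was 1.31 (SE 0.317, adjusted p = 0.00758, edgeR), and 0.72 (adjusted p = 0.138) after subtraction. Farsb, the beta subunit of the phenylalanyl enzyme, had 45.1, 76.8 and 96.4 in WT and 232, 130 and 135 in ING4-/-. Its log2 ratio was also highest in LT-HSCs, at 2.36, 0.76 and 0.48. Its log2 fold change was 1.19 (SE 0.371, adjusted p = 0.0245, edgeR), and 0.50 (adjusted p = 0.346) after subtraction. With population as a block, Farsb kept a log2 fold change of 1.19 but was no longer called (adjusted p = 0.0583, edgeR). Farsb shares 9.47% of its exonic bases with Sgpp2 on the opposite strand. Sgpp2 had 67, 162 and 185 counts in WT and 0, 0 and 2 in ING4-/-, and its part in the Farsb values was not tested. The gene for the partner subunit of the same enzyme, Farsa, had a log2 fold change of 0.67 (adjusted p = 0.0293, edgeR), under the fold for a call, and -0.046 (adjusted p = 0.887) after subtraction.

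Mars, the methionyl enzyme of the complex, had 42.8, 88.1 and 94.6 CPM in WT and 81.4, 323 and 209 in ING4-/-. The groups overlapped, since ING4-/- LT-HSCs lay below WT ST-HSCs and MPPs. Its log2 fold change of 1.44 (SE 0.537, adjusted p = 0.0475, edgeR) was called in 1 of the 6 fits that left out a library, and was 0.76 (adjusted p = 0.303) after subtraction. Across the 8 genes of the complex, the median log2 fold change was 0.68, with 2 called higher, and the 13 cytosolic genes outside it had a median of 0.69 with 3 called higher. After subtraction the medians were -0.025 and -0.046. In the deposited counts 7.98% of all genes tested were called higher, and 24.3% of those with 10 counts in each library. The counts called are thus no result about the complex. Class I and class II members had medians of 0.46 and 0.71 from the deposited counts, and of -0.0022 and 0.24 after subtraction.

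Eprs, the fused glutamyl-prolyl enzyme of the complex, went the other way. It had 278, 243 and 286 CPM in WT and 201, 155 and 164 in ING4-/-, and every ING4-/- library lay below every WT library. It was the only one of the 38 with this order, where 62.9% of all genes tested had it. The log2 fold change was -0.64 (SE 0.184, adjusted p = 0.0175, edgeR) from the deposited counts, short of a call, and -1.22 (SE 0.187, adjusted p = 0.00217) after subtraction. With upper-quartile normalization it was -0.043 (adjusted p = 0.855, edgeR). The longest of the members in annotated exons, Eprs had a value above 0 (0.83) when the trend of fold change on gene length was removed, and 1.04 with population as a block as well. Tarsl2 had the lowest log2 fold change of all, -0.75 (SE 0.631, adjusted p = 0.338, edgeR), and -0.52 (SE 0.733) after subtraction. Its CPM was 27.6, 30.04 and 28.1 in WT and 6.07, 30.7 and 14.2 in ING4-/-, where the ST-HSC library matched WT and the others lay below.

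The 5 cytosolic genes with TGATGNAA in the promoter window had log2 fold changes of 0.19 (Aars), 0.69 (Yars), 0.76 (Tars), 0.80 (Iars) and 1.31 (Gars), of which Gars alone was called. Of the 9 cytosolic genes with a window that lacks it, 3 were called, Mars, Sars and Farsb. Over all genes tested 7.98% were called higher, and 24.3% of those with 10 counts in each library. These counts are thus no result about the motif. After subtraction the 5 genes with the motif lay between -0.26 and 0.59, and none was called. Aars shares 14.3% of its exonic bases with Exosc6 on the same strand, and Exosc6 had 0 counts in every library, where the background alone corresponds to 24.2 to 30.4 counts in WT, so reads on its bases were not counted for it. What this does to the Aars counts was not tested.

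Of the mitochondrial enzymes, Lars2, which charges mitochondrial leucine tRNA, had the highest log2 fold change from the deposited counts. After subtraction that of Mars2 was higher, at 3.22 (SE 1.98, adjusted p = 0.244, edgeR), with 0 CPM left in WT LT-HSCs and MPPs. Lars2 lies on chromosome 9 of GRCm38 from 123366927 to 123462666 on the plus strand. Its counts were 2144, 4477 and 4965 in WT and 120464, 103905 and 142714 in ING4-/-. Its CPM was 226, 482 and 487 in WT and 3849, 3286 and 4207 in ING4-/-, so the lowest ING4-/- library lay far above the highest WT library. The log2 fold change was 3.25 (SE 0.320, adjusted p = 6.6e-04, edgeR), 2.52 (SE 0.331, adjusted p = 0.00217) after subtraction and 3.32 (adjusted p = 0.0118) in the fit with populations as blocks. When 1 library at a time was left out, it was 2.93 to 3.39. Its cytosolic counterpart Lars, with 67.0, 97.97 and 88.01 in WT and 79.0, 139 and 137 in ING4-/-, had a log2 fold change of 0.49 (adjusted p = 0.191, edgeR), and of -0.19 (adjusted p = 0.665) after subtraction.

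Lars2 alone held 8.02% to 14.6% of the counts on synthetase genes in WT and 39.5% to 48.4% in ING4-/-. All 38 genes together took 0.341% to 0.440% of a WT library and 0.696% to 0.753% of an ING4-/- library. Without Lars2 these shares were 0.314% to 0.387% and 0.389% to 0.421%, so most of the difference in the summed share lay in this gene.

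**Figure D4:**
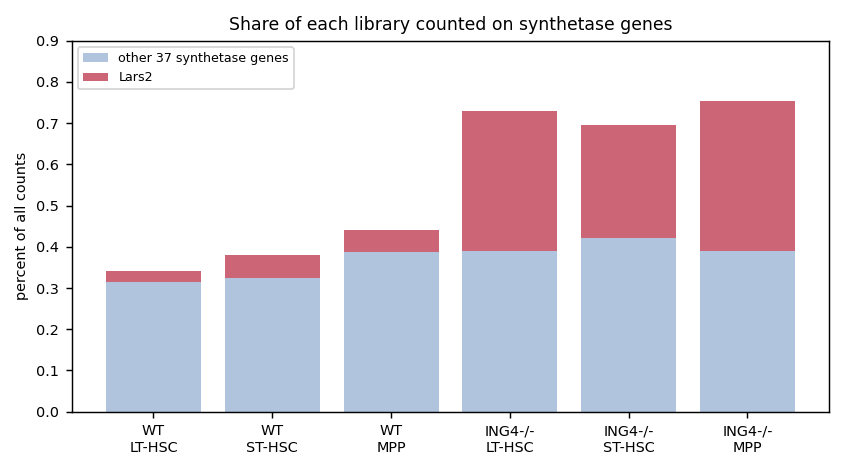
Percent of all counts of each library that fell on synthetase genes, with Lars2 in red stacked on the other 37 genes in blue. The blue part is 0.314% to 0.421% in every library, while the red part is the tallest in the 3 ING4-/- libraries.

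Other values bear on the Lars2 counts, and the genes compared were chosen after their values were seen. Among annotated transcripts, 72 bases of Lars2-201, positions 3278 to 3349 of its 3894, are 98.6% identical to Gm15564, a gene on chromosome 16. They lie in the 3′ untranslated region, since the last coding base is 2908. Gm15564 had 108, 164 and 161 counts in WT and 5660, 6573 and 7473 in ING4-/-, a log2 fold change of 3.76 (SE 0.267), and of 3.13 (SE 0.297) after subtraction. Gm42418, a non-coding gene on chromosome 17 that overlaps ribosomal RNA sequence, had 4368, 8871 and 6398 in WT and 152789, 138466 and 172187 in ING4-/-, a log2 fold change of 2.81 (SE 0.273), and of 1.98 (SE 0.291) after subtraction. Both were higher in every ING4-/- library than in any WT library, as Lars2 was, and their part in the Lars2 result was not tested. For all other members, stretches of at least 70 bases shared at 98% identity or more came from overlapping or neighbouring genes, or, for Cars, from a pseudogene with at most 1 count in any library.

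Fars2, the mitochondrial phenylalanyl enzyme, was the other member called with and without subtraction. It had 34.1, 27.9 and 39.3 CPM in WT and 139, 104.5 and 92.4 in ING4-/-, with no overlap, and means of 33.8 ± 5.74 and 112 ± 24.1 (SD, n = 3 populations each). The log2 fold change was 1.73 (SE 0.282, adjusted p = 0.00118, edgeR), and 1.14 (SE 0.303, adjusted p = 0.0167) after subtraction. Its ratio was higher in all 3 populations, at 2.02, 1.90 and 1.23 on the log2 scale, and with the background subtracted at 1.47, 1.25 and 0.65. With subtraction and the population block together its log2 fold change was 1.13, with an adjusted p of 0.0861 (edgeR).

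Tars2, the mitochondrial threonyl enzyme, had 46.1, 76.1 and 115 CPM in WT and 144, 225 and 131 in ING4-/-. The groups did not overlap, but the MPP libraries were close. The log2 fold change was 1.07 (SE 0.389, adjusted p = 0.0434, edgeR) and 0.58 (adjusted p = 0.338) after subtraction. Pars2, the mitochondrial prolyl enzyme, had 14.8, 16.1 and 12.5 in WT and 21.3, 69.5 and 31.0 in ING4-/-. Background made up 44.5% to 49.6% of its WT counts. Its log2 fold change of 1.49 (SE 0.541, adjusted p = 0.0439, edgeR) was called in 2 of the 6 fits that left out a library, and it was 1.57 (adjusted p = 0.0841) after subtraction and 1.31 (adjusted p = 0.122) with population as a block.

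The mitochondrial genes with the lowest values were not called. Ears2, the glutamyl enzyme, had 30.8, 29.6 and 37.2 CPM in WT and 31.3, 6.83 and 29.6 in ING4-/-, so that only the ST-HSC library lay low (log2 fold change -0.53, SE 0.608). Cars2, the cysteinyl enzyme, had 39.4, 23.9 and 47.3 in WT and 7.12, 39.1 and 34.0 in ING4-/-, low in LT-HSCs only (-0.46, SE 0.660). Aars2, the alanyl enzyme, had 8.53, 22.2 and 31.98 in WT and 10.3, 8.19 and 28.4 in ING4-/- (-0.42, SE 0.724), and background corresponded to 93.5% of its counts in WT LT-HSCs. After subtraction the 3 log2 fold changes were -0.69, -0.44 and -0.58.

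Cytosolic and mitochondrial genes had similar medians in the genotype comparison of all 6 libraries as deposited. The median log2 fold change was 0.69 for the 21 cytosolic genes, of which 19 lay above 0, and 0.60 for the 17 mitochondrial genes, of which 11 did, or 0.42 without Lars2. Leaving out each library in turn gave 0.50 to 0.79 for cytosolic and 0.36 to 0.53 for mitochondrial genes, and the population block 0.70 and 0.47. After subtraction the order turned, at -0.046 for cytosolic and 0.33 for mitochondrial genes (0.22 without Lars2), with 10 and 11 above 0 (35.1% of all genes tested there). Within amino acids, the cytosolic gene had the higher fold change in 11 of 13 pairs from the deposited counts, with a median difference of 0.61. The exceptions were leucine, at -2.75, and tyrosine, at -0.16. After subtraction it was higher in 7 of 13 pairs, with a median difference of 0.076, and the pairs for methionine, tyrosine, valine, tryptophan and asparagine then lay below 0 next to leucine. For Mars2 and Vars2, in the methionine and valine pairs, the background reached 135% and 97.2% of the counts in a WT library. The difference between cytosolic and mitochondrial genes was not tested, since genes are not replicates.

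**Figure D5:**
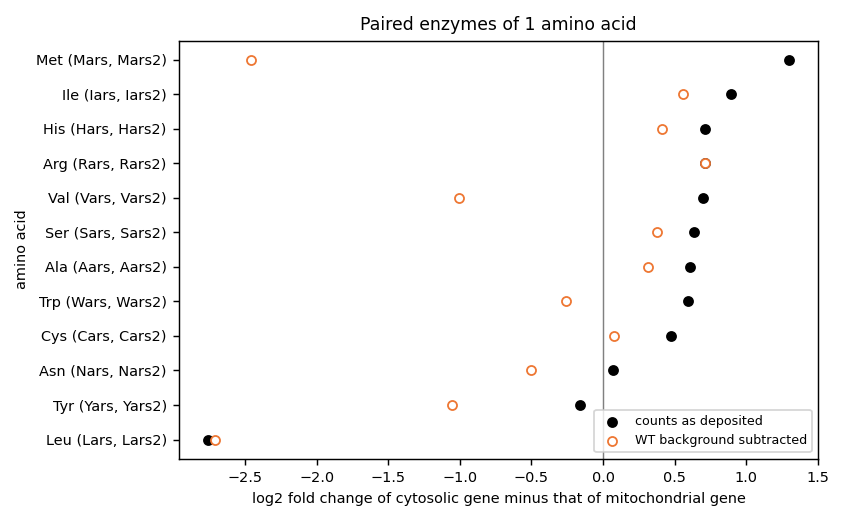
Log2 fold change (ING4-/- against WT) of the cytosolic gene minus that of the mitochondrial gene for 12 of the 13 amino acids with 1 gene of each kind, from the counts as deposited (black) and after background subtraction (open). In the deposited counts 10 of 12 points lie above 0, after subtraction 6, and leucine lies at -2.75 and -2.71.

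Within a population there is 1 library of each genotype and no replicate check on the ratio between them. From the deposited counts, cytosolic genes had median log2 ratios of 0.79, 0.76 and 0.37 for the LT-HSC, ST-HSC and MPP libraries, with 18, 20 and 16 of 21 above 0. Mitochondrial genes had 0.27, 0.78 and 0.23, with 10, 14 and 10 of 17 above 0. After subtraction the MPP medians were -0.19 and -0.20, and those of LT-HSCs and ST-HSCs were 0.28 and 0.20 for cytosolic and 0.72 and 0.66 for mitochondrial genes. In 18 of 38 members all ING4-/- libraries lay above all WT libraries, against 12% of all genes tested, and after subtraction in 8, against 13.9%. The ratio was above 0 in all 3 populations for 21 members (15 cytosolic, 6 mitochondrial) and below 0 for 1, Eprs, where 15% and 66% of all genes tested had these orders. After subtraction it was above 0 in all 3 for 11 members (5 cytosolic, 6 mitochondrial) and below 0 for 3, against 19.6% and 51.1%. All genes tested are an unlike base, with a median log2 fold change of -6.85 from the deposited counts. The 9673 genes with 10 counts in each library, as every member had, were at 0.52. Shares of these orders among the 9673 genes were not taken, so they are no result about the synthetases as a list.

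Between populations, no synthetase gene was called. The populations were compared in a model with genotype and population, which has 2 residual degrees of freedom. Of 36170 genes tested, 0 were called between MPPs and LT-HSCs by edgeR (0%), and 564 (1.56%) had an unadjusted p under 0.05, 3 synthetase genes among them. These were Mars at a log2 fold change of 1.25 (unadjusted p = 0.0104), Nars2 at 1.48 and Dars at 0.72. DESeq2 called 0.974% of genes and 0 synthetase genes. ST-HSCs against LT-HSCs, and MPPs against ST-HSCs, also gave 0 calls, with 2 and 0 members at an unadjusted p under 0.05 (1.73% and 0.506% of genes). The median log2 fold change of MPPs against LT-HSCs was 0.28 for cytosolic and 0.22 for mitochondrial genes. It was 0.094 for all genes tested and 0.13 for those with 10 counts in each library. Leaving out each library in turn gave -0.14 to 0.46 for cytosolic and 0.095 to 0.46 for mitochondrial genes, so the cytosolic sign was not stable.

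By genotype, the order of the populations differed as a description, without a test. In WT, 29 of 38 members were highest in MPPs and 34 had more in MPPs than in LT-HSCs. In ING4-/-, 8 were highest in MPPs, 18 in ST-HSCs and 12 in LT-HSCs, and 20 had more in MPPs than in LT-HSCs. After subtraction 24 and 10 members were highest in MPPs, in WT and ING4-/-. The same orders were not counted over all genes, so they cannot be called particular to the synthetases. The background density differed among the WT libraries and was lowest in MPPs, and its part in the WT order was not tested beyond the subtraction. The summed CPM of 6 cycling genes was 425 to 962 in WT and 512 to 2121 in ING4-/-. Of the 6, 2 were called higher and 1 lower from the deposited counts, next to 7.98% and 56.7% of all genes tested. After subtraction the counts were 0 and 1, next to 5.64% and 38.6%. Mki67 had 47.7, 132 and 76.5 in WT and 0.73, 1.58 and 9.93 in ING4-/-.

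Other genes of tRNA charging and of the amino acid response were listed beside the synthetases. Of 32 such genes found, 31 were tested, and 11 (35.5%) were called higher and 0 lower from the deposited counts, next to 7.98% higher among all genes tested and 24.3% among those with 10 counts in each library. After subtraction 1 (3.23%) was called higher and 1 lower, next to 5.64% and 9.09% higher in the same sets. Of the scaffold genes of the synthetase complex, Aimp2 had 254, 270 and 251 counts in WT and 2677, 4392 and 2979 in ING4-/-, a log2 fold change of 1.96 (SE 0.301) that was also called after subtraction (1.33, adjusted p = 0.00994, edgeR). Eef1e1 was called from the deposited counts only (1.47, and 0.78 after subtraction), and Aimp1 had 0.91 and 0.86, not called. None of the 3 genes of the mitochondrial glutaminyl-tRNA amidotransferase (Gatb, Gatc and Qrsl1), which makes glutaminyl-tRNA in mitochondria in place of a synthetase, was called.

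In the amino acid response list 5 of 12 genes tested were called higher from the deposited counts, namely Asns, Psat1, Phgdh, Shmt2 and Slc7a5, which serve the synthesis and import of amino acids. This is 41.7% of the list, next to the same 7.98% and 24.3%. Their log2 fold changes lay between 1.37 (Phgdh) and 2.42 (Slc7a5). After subtraction none was called. Asns, Psat1, Phgdh and Shmt2 fell to 0.85, 0.75, 0.58 and 0.68, under the fold for a call. Slc7a5 rose to 4.28 (SE 1.51, adjusted p = 0.0541, edgeR). Its WT counts were 88, 81 and 112, where the background alone corresponds to 83.9, 85.0 and 67.8. Its WT level was thus near the background in LT-HSCs and ST-HSCs. Atf4 itself had 1178, 850 and 1075 counts in WT and 2633, 2944 and 2604 in ING4-/- at totals several times deeper, a log2 fold change of -0.34 (adjusted p = 0.223, edgeR) that became -1.11 (adjusted p = 0.00398) and a call after subtraction. Eif2ak4, which encodes GCN2, had -0.22 and -0.56.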

How the data were processed

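RNA-seq counts of 6 libraries were analysed, 1 per genotype (WT, ING4-/-) and sorted population. The authors deposited raw counts of reads per gene, with no normalization, from libraries made and sequenced on an Illumina HiSeq by a company, and the submitters' processing notes name the build mm10. The aligner, the counting program and the strand setting are not given in the sources used here, so a gene and one that overlaps it cannot be told apart on their shared bases.

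Symbols came from GENCODE for GRCm38, in which 49056 of 49315 gene identifiers were found. The members, the lists and the rule for genes described in full (called genes, the 5 highest and 5 lowest log2 fold changes, and calls lost or gained with subtraction) were chosen with earlier results of these data known. Lars, Farsa, Vars, Nars, Mars2, Vars2, Nars2, Dars, Gm15564, Gm42418, Exosc6, Sgpp2, Cd48, Car1, Hba-a1 and Mki67 fall outside this rule and were named after their values were seen. One mitochondrial member is counted throughout but not reported on its own here, and the plots that name genes leave it out. Genotypes were compared with the quasi-likelihood F test of edgeR 4.0.16 under R 4.3.3, after filterByExpr by genotype and TMM scaling, and Benjamini-Hochberg adjustment over all genes tested. The SE of a log2 fold change is its size divided by the root of F. Populations were compared with genotype as a covariate and filterByExpr by population. CPM are TMM-normalized, log2 ratios within a population use a prior count of 2, and levels per kb use exonic bases. DESeq2 1.42.0 was the other count test. Background was measured on 1915 receptor genes and subtracted in proportion to exonic length, with results rounded and no value below 0. Alternatives were other normalizations and filters, subtraction, thinning to 7839326 counts, removal of the trend on gene length, the population block and leaving out libraries. Shared sequence was searched among GENCODE transcripts with BLAST 2.17.0 at 98% identity over at least 70 bases. Fits were tested on simulated counts, and tables were made with Python 3.11.15 and pandas 2.3.3. A count of 0 allows up to 3 counts, a CPM of 0.383 in the shallowest library, and such limits cover counting error only, since reads without molecular identifiers are not independent molecules.

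Libraries of 1 population deviated together from their genotype means over 9673 genes (r = 0.143 for LT-HSC, 0.110 for ST-HSC and 0.121 for MPP libraries), which is a pairing seen in the data and not stated in the labels as a shared day or batch. No 2 libraries of a genotype were duplicates, their counts differing with a chi-square of 15.4 or more for each degree of freedom.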

Additional observations from a re-analysis of the deposited data

How the results depend on the processing

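The number of synthetase genes called higher in ING4-/- moved with the scaling. From 9 in the deposited counts with TMM (7.98% of all genes tested) it went to 2 when edgeR used DESeq2's size factors (4.33%). It was 24 with the upper quartile (14.7%), 2 with DESeq2 (3.47%) and 2 with a minimum of 10 counts in each library (8.3%). With protein-coding genes only it was 2 (1148 of 18600 genes tested), and after thinning to equal total counts 5 (1756 of 26254). It was 5 without both ST-HSC libraries (1540 of 31484) and 16 without a minimum fold (9.60%). The 2 scalings shifted the median of all genes tested by -0.32 (size factors) and 0.50 (upper quartile) on the log2 scale. Among the 9673 genes with 10 counts in each library the median was 0.17 with the size factors and 1.12 with the upper quartile. Leaving out each library in turn gave 5 to 10 called higher, with 5 in the absence of the WT LT-HSC or the WT ST-HSC library, and 0 lower. Of 32386 to 34725 genes tested in these fits, 1705 to 2804 were called higher and 18189 to 20464 lower. Background subtraction left 2 higher (5.64% of all genes tested) and 1 lower (Eprs, 38.6%). Also, 1 gene was called lower with the minimum of 10 counts (9.68%) and 1 without a minimum fold (56.8%).

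The median log2 fold changes of cytosolic and mitochondrial genes were 0.34 and 0.25 under the size factors, 1.28 and 1.20 under the upper quartile, 0.36 and 0.27 with DESeq2, 0.19 and 0.10 with the minimum of 10 counts, 0.34 and 0.26 with protein-coding genes only, and 0.40 and 0.18 with the gene length trend removed, which gives values without a test. The cytosolic median was -0.046 after subtraction. Without each library they lay between 0.50 and 0.79 and between 0.36 and 0.53. Of MPPs against LT-HSCs, the mitochondrial median of 0.22 became 0.063 under the size factors, 0.094 under the upper quartile, 0.062 with DESeq2, 0.091 with the minimum of 10 counts, 0.42 after subtraction and 0.095 to 0.46 without each library, and the cytosolic median lay between -0.14 and 0.46 without each library. No synthetase gene was called between these populations under any of these settings.

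With population as a replicate block, 7 members were called higher (6.45% of all genes tested) and 0 lower (54.4%). The calls lost were Farsb and Pars2, whose log2 fold changes were 1.19 and 1.31 there. The block with subtraction gave 1 higher (Lars2, next to 0.915% of all genes tested) and 1 lower (Eprs, next to 0.89%). The cytosolic median was -0.051 in that fit, and the block with the length trend removed gave a mitochondrial median of 0.21. With subtraction, 10 of the 38 members went from above to below 0 (9 cytosolic, 1 mitochondrial) and 1 from below to above. Of the 14 members described in full, Aars2 was at 0.16, Cars2 at 0.13 and Ears2 at 0.057 with upper-quartile normalization, Aars2 at 0.12 with subtraction and block, Cars2 at 0.013 without ING4-/- replicate 1 (LT-HSCs; its range without each library was -0.82 to 0.013) and at 0.074 without both LT-HSC libraries, and Eprs at 0.83 and, with the block, 1.04 with the length trend removed. The cause of these changes was not tested. For these 14, 183 of the values under alternatives with a test kept their direction and their side of the threshold, 74 kept the direction but lost the call, 3 gained one and 6 changed sign. Removing the length trend, with or without the block, moved 4 of the 14 by more than their spread between populations without a change of sign. The shallower WT libraries and their background limit what can be said of genes with low WT counts, above all mitochondrial members such as Mars2, Vars2 and Aars2.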
